A study of Mus musculus with 10 samples.

Results

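The connexin genes Gja1, Gjb2, Gjb6, Gjc3, Gjd2, Gja4 and Gja5 and the water channel gene Aqp4 were followed through the cell classes of the medial prefrontal cortex. They are 8 of the 30406 genes listed for every library, found by their symbols, and all 8 were present in all 10 libraries. The libraries came from single cells of male C57BL/6N mice, an inbred strain, over 2 months old. Social rank had been set by the tube test. There a pair of mice enter from opposite ends until one is pushed out. There were 5 libraries of rank 1 (dominant) mice and 5 of rank 4 (subordinate) mice, numbered replicate 1 to 5 in each rank, and each pooled tissue of 2 to 3 mice. No other treatment or genotype is given for either rank, and both were dissociated with papain one day after the last tube test. The library was therefore the unit of replication, and which mice went into which library was not given.

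Connexins are membrane proteins that assemble into hexameric hemichannels, and hemichannels of adjoining cells dock to form gap junctions through which ions and small molecules pass. Astrocytes are joined into a network by connexin 43 (Gja1) and connexin 30 (Gjb6), and connexin 26 (Gjb2) is known from the leptomeninges and some astrocytes. Connexin 29 (Gjc3) belongs to the oligodendrocyte lineage, connexin 36 (Gjd2) forms electrical synapses between interneurons, and connexins 37 (Gja4) and 40 (Gja5) are those of the vessel wall. Aquaporin 4 is the main water channel of the brain and sits in the astrocyte end-feet on vessels.

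The 10 libraries held 4442750 to 29278466 UMIs (unique molecular identifiers, which count RNA molecules rather than their copies) over 64937 deposited barcodes, of which 45864 were kept as cells. The median kept cell held between 1327.5 and 2674.5 UMIs, depending on the library. Kept cells of different libraries shared at most 37 barcodes, and no pair of libraries shared more than 0.879% of the cells of the smaller one. Clustering without the 8 genes gave 8957 astrocyte-like cells, 3232 oligodendrocyte precursor-like, 291 committed precursor-like and 2277 oligodendrocyte-like cells. It also gave 4285 endothelial-like, 1602 pericyte-like, 561 smooth muscle-like and 108 fibroblast-like cells, 16575 excitatory and 2169 inhibitory neuron-like cells, and 3589 microglia-like cells. Names rest on marker genes and are used below without "like". Levels are CPM, the UMIs of a gene in each 1000000 UMIs of the cells of 1 class in 1 library, as the mean ± SD over libraries with at least 20 such cells. They were compared within a gene, since no value was scaled to transcript length.

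Gja1, Gjb6 and Aqp4 were astrocyte genes in these libraries. Astrocytes held 90.3% of the 24976 Gja1 UMIs, 91.1% of the 8994 Gjb6 UMIs and 89.6% of the 7965 Aqp4 UMIs of all kept cells. Gja1 lies on chromosome 10 (GRCm38, 56377330 to 56402513, plus strand). Gjb6 (57123303 to 57133611) and Gjb2 (57098600 to 57104702) are neighbours on the minus strand of chromosome 14, with 18600 bases between them. The 250 bases before the start of Gja1, Gjb6 and Gjb2 are shown because the first pair shared a leading cell class and were high in the same libraries, while the neighbour of Gjb6 had another leading cell class. They were taken from RefSeq (GRCm38.p6), which places the start of Gja1 at 56377300, before that of the GENCODE span above, run 5′ to 3′ on the strand of the gene, and have GC boxes (GGGCGG on either strand) in capitals.
Gja1, chr10:56377050-56377299, plus strand: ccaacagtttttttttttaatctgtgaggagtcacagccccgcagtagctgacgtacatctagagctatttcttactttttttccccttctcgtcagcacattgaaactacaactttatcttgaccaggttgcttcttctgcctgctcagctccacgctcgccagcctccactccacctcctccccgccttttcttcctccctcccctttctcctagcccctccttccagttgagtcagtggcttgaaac
Gjb6, chr14:57133612-57133861, minus strand: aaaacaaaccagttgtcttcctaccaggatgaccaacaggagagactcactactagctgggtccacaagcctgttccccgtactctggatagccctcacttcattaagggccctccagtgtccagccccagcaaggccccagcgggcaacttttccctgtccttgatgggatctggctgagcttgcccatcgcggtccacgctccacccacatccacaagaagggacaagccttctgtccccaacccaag
Gjb2, chr14:57104703-57104952, minus strand: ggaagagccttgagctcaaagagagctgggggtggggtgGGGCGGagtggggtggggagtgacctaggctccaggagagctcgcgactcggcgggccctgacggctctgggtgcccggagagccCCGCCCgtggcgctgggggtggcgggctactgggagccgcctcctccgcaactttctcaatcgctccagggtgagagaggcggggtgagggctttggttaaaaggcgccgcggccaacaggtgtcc
The Gjb2 window was 69.2% G and C and held 2 GC boxes, a motif found in 32.7% of 32851 promoter windows of this length. Those of Gja1 (50.0% G and C) and Gjb6 (56.8%) held none, and none of the 3 held TATAAA (12.4% of windows), CCAAT (33.9%) or AACAAT (9.42%). The median window was 52.4% G and C. A match of letters shows no bound factor, and the absence of one says only that these letters were not in this window.

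The level of Gja1 in astrocytes was 1515 ± 406 CPM (SD, n = 10 libraries), against 23.3 ± 15.4 CPM in microglia. In rank 1 it was 1320, 1996, 1959, 1402 and 1146 CPM in replicates 1 to 5. In rank 4 it was 1179, 1894, 2044, 1116 and 1095 CPM. The ranks overlapped, and the high values were those of replicates 2 and 3 in both. A Gja1 UMI was seen in 81.5% ± 8.63 of astrocytes (SD, n = 10; median depth 1506 UMIs). It was seen in 3.41% ± 3.29 of microglia (SD, n = 10; median depth 1273 UMIs), the share in a class not known for the gene. With every cell thinned to 1000 UMIs these shares were 73.3% ± 9.84 and 2.24% ± 1.65 (SD, n = 10 each), and 1436 astrocytes and 1092 microglia were too shallow to enter.

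The level of Gjb6 in astrocytes was 601.0 ± 289 CPM (SD, n = 10) and spread more widely between libraries. It was 460.2, 908, 1008, 364 and 317 CPM in rank 1 and 405, 998, 797, 397 and 355 CPM in rank 4. Replicates 2 and 3 of both ranks lay at 797 CPM or above, and no other library exceeded 460.2 CPM. A Gjb6 UMI was seen in 56.5% ± 17.1 of astrocytes and 1.46% ± 1.45 of microglia (SD, n = 10 each).

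Aqp4 lies on chromosome 18 (GRCm38, 15389496 to 15410982, minus strand) and overlaps an antisense gene, whose reads can be told from its own only if counting used the strand. Its level in astrocytes was 448 ± 145 CPM (SD, n = 10). It was 483, 401, 349, 753 and 544 CPM in rank 1 and 274, 369, 305, 573 and 434 CPM in rank 4. Within each rank the highest libraries were replicates 4 and 5, but rank 1 replicate 1 lay above rank 4 replicate 5, and replicates 2 and 3 were not high. An Aqp4 UMI was seen in 47.8% ± 9.11 of astrocytes and 1.60% ± 1.43 of microglia (SD, n = 10 each). Oligodendrocyte precursors had 26.9 ± 6.84 CPM of Aqp4 and microglia 11.1 ± 8.73 CPM (SD, n = 10 each), and precursors were the higher in 9 of 10 libraries. Per Aqp4 UMI, precursors held 0.982 Gja1 UMIs, astrocytes 3.16 and microglia 2.18. Committed precursors held 0.857, on 28 Aqp4 UMIs, and oligodendrocytes 1.48, on 48. An Aqp4 UMI was seen in 7.54% ± 4.85 of committed precursors (SD, n = 7) and 5.08% ± 2.80 of precursors (SD, n = 10). At 1000 UMIs per cell these shares were 2.05% ± 2.37 (SD, n = 6) and 2.37% ± 1.17 (SD, n = 10). Summed astrocyte markers (7 genes) in precursors were at 2219 CPM on average, against 21496 CPM in astrocytes.

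**Figure D1:**
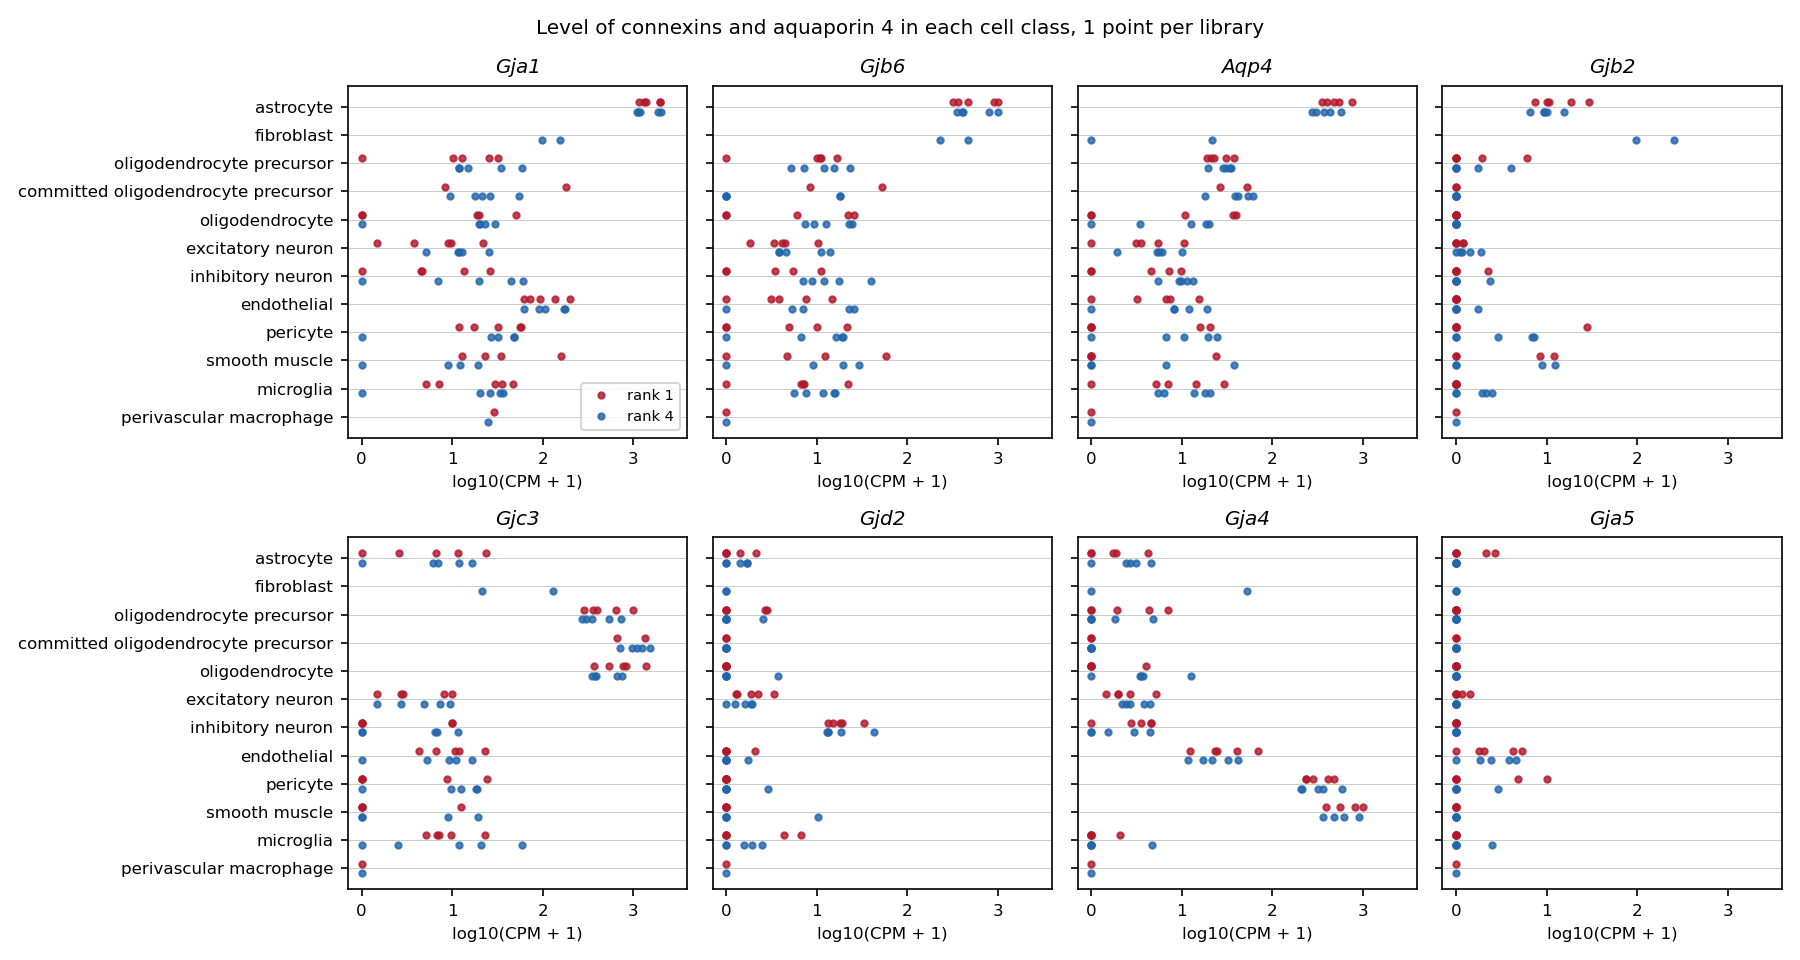
Level of each gene, as log10(CPM + 1), in 12 cell classes, with 1 point per library with at least 20 cells of the class, red for rank 1 and blue for rank 4. Gja1, Gjb6 and Aqp4 peak in astrocytes, Gjc3 in the 3 classes of the oligodendrocyte lineage, Gja4 in mural cells and Gjd2 in inhibitory neurons, and points of the 2 ranks lie among each other in these classes.

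A cluster of 900 astrocytes was led by Gfap, the intermediate filament of fibrous and superficial astrocytes, with Igfbp5 and Sfrp1. It was also led by Vim, Fos, Ass1, Cyba and the haemoglobin genes Hbb-bs, Hba-a2 and Hba-a1. The cluster got no subtype name, because more of these genes were erythroid markers than markers of its best-scoring subtype. Its Gja1 level was 1616 ± 616 CPM (SD, n = 9 libraries), above that of all other astrocytes of the same library in 6 of 9. Gjb6 was the higher there in 2 of 9 libraries, with a median ratio of 0.859. Aqp4 was the higher in 5 of 9, with a median ratio of 1.01. None of these genes set the cluster apart by more than the spread between libraries.

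Within astrocytes, pairs of the 3 genes were seen together about as often as their separate shares predict, or slightly more often. At 1000 UMIs per cell, Gja1 and Gjb6 were both seen in 32.9% ± 16.2 of astrocytes, against 32.2% ± 16.3 for the product of the shares (SD, n = 10). For Gja1 and Aqp4 these values were 25.4% ± 5.60 and 24.3% ± 5.68 (SD, n = 10). For Gjb6 and Aqp4 they were 14.2% ± 4.25 and 13.6% ± 4.57 (SD, n = 10). An Aqp4 UMI was seen in 35.0% ± 8.13 of astrocytes with Gja1 and 28.9% ± 9.40 of those without it (SD, n = 10), and more often with Gja1 in 9 of 10 libraries.

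Gjb2 gave 247 UMIs in all, of which 164 were in astrocytes and 43 in the 108 fibroblasts. As CPM, fibroblasts held the most, 96.5 and 256 CPM in the 2 libraries with at least 20 of them. Astrocytes of the same libraries held 8.46 and 9.15 CPM. Over all libraries, 25.9% of fibroblasts had a Gjb2 UMI (95% Wilson interval 18.6% to 34.9%), in 8 of 10 libraries. Of astrocytes it was 1.76% (1.51% to 2.06%), and of pericytes 0.312% (0.133% to 0.729%). No oligodendrocyte had one, 0 of 2277 cells, which allows a share of cells with a UMI of up to 0.132% and sets no limit on cells that express the gene. These intervals and limits cover counting error only.

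Gjb6 and Gja1 were also seen in fibroblasts, and Aqp4 hardly. A Gjb6 UMI was seen in 37.0% of the 108 fibroblasts (95% Wilson interval 28.5% to 46.4%) and a Gja1 UMI in 33.3% (25.2% to 42.7%). An Aqp4 UMI was seen in 2.78% of them (0.949% to 7.85%), 3 cells in all. Fibroblasts held 80 UMIs of Gjb6 to 5 of Aqp4, and astrocytes 8191 to 7140. The summed astrocyte markers were at 6700.4 CPM in fibroblasts, and all 7 of them were detected there. Pericyte markers were at 5273 CPM and the fibroblast markers themselves at 5860.5 CPM. The part of astrocyte RNA in these fibroblast values was not tested.

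Endothelial cells held more Gja1 for their Gjb6 and Aqp4 than astrocytes did. Their level was 117 ± 51.1 CPM of Gja1 (SD, n = 10), above microglia and above pericytes of the same library in 10 of 10. In rank 1 it was 93.0, 199.5, 138, 62.1 and 72.0 CPM, and in rank 4 it was 90.5, 173, 176, 104 and 60.7 CPM. Replicates 2 and 3 were again the high ones. Over all libraries endothelial cells had 10.5 Gja1 UMIs per Aqp4 UMI, against 3.16 in astrocytes (1.86 to 6.70 by library), 2.18 in microglia, 5.5 in smooth muscle and 11.4 in fibroblasts, the last 2 on 8 and 5 Aqp4 UMIs. The ratio was higher in endothelial cells than in astrocytes in 10 of 10 libraries and than in microglia in 9 of 10, and 2 libraries had no endothelial Aqp4 UMI. They had 0.105 Gjb6 UMIs per Gja1 UMI, against 0.363 in astrocytes (0.260 to 0.527 by library) and 0.394 in microglia, and were below astrocytes in 10 of 10 libraries. The summed astrocyte markers were at 620.0 CPM in endothelial cells (233 to 1382 over libraries), and all 7 were detected there. Per 1000 UMIs of these markers endothelial cells had 133 Gja1 UMIs, astrocytes 71.9 and microglia 32.6. Arterial endothelial cells (587) and all others (3698) did not differ in Gja1 beyond the spread of libraries, at 115 ± 60.2 CPM (SD, n = 9) and 119 ± 53.4 CPM (SD, n = 10).

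Gjc3 was the connexin of the whole oligodendrocyte lineage and was highest in committed precursors, the stage between dividing precursor and myelinating cell. Precursors held 42.4% of its 6690 UMIs, oligodendrocytes 33.0% and the 291 committed precursors 12.5%. Gjc3 lies on chromosome 5 (GRCm38, 137953461 to 137963098, minus strand). Its level was 488 ± 240 CPM in precursors (SD, n = 10), 1077 ± 322 CPM in committed precursors (SD, n = 7) and 641 ± 314 CPM in oligodendrocytes (SD, n = 10). Astrocytes were at 7.79 ± 7.20 CPM and microglia at 13.9 ± 17.4 CPM (SD, n = 10 each). Committed precursors exceeded both neighbours in each of the 7 libraries, by 1.68 to 3.57 times over precursors and by 1.62 to 2.80 times over oligodendrocytes. Oligodendrocytes exceeded precursors in 9 of 10 libraries, by a median of 1.25 times.

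Gjb1 (connexin 32), a connexin of myelin, was highest at the end of the lineage. It was at 26.4 ± 13.1 CPM in precursors (SD, n = 10), 8.31 ± 9.10 CPM in committed precursors (SD, n = 7) and 306.5 ± 192 CPM in oligodendrocytes (SD, n = 10). In committed precursors the Gjb1 level rested on 7 UMIs.

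**Figure D2:**
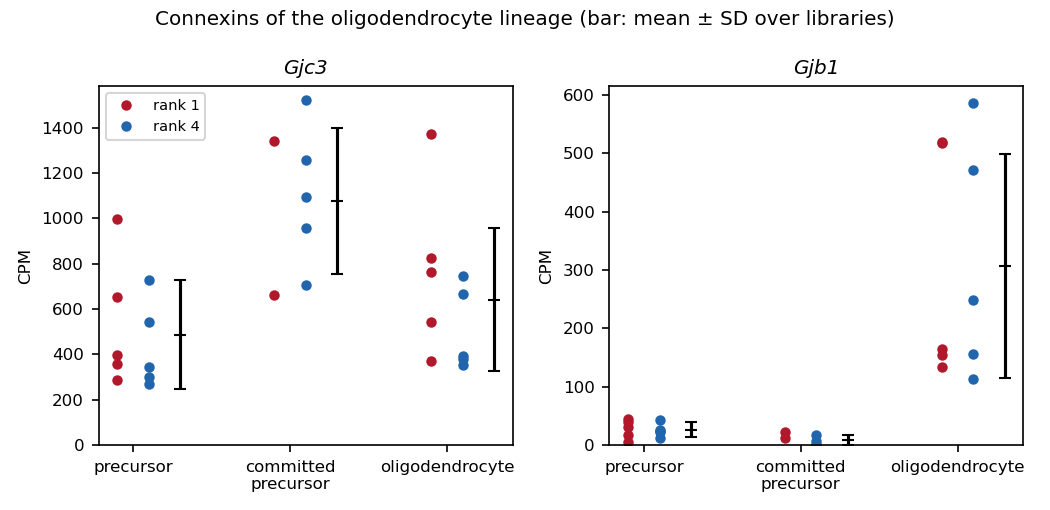
CPM of Gjc3 and Gjb1 in oligodendrocyte precursors, committed precursors and oligodendrocytes, 1 point per library (red rank 1, blue rank 4) with the mean ± SD beside them. Gjc3 is highest in committed precursors (1077 CPM), while Gjb1 (306.5 CPM) is highest in oligodendrocytes.

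Gja4 was a gene of mural cells first and of arterial endothelium second. It lies on chromosome 4 (GRCm38, 127311421 to 127314039, minus strand). Smooth muscle cells held 43.0% of its 1742 UMIs, pericytes 34.4% and endothelial cells 11.3%. Its level was 640.1 ± 239 CPM in smooth muscle (SD, n = 8) and 334 ± 129 CPM in pericytes (SD, n = 10), and smooth muscle was the higher in 8 of 8 libraries, by 1.49 to 2.40 times. Arterial endothelial cells were at 84.9 ± 45.3 CPM (SD, n = 9) and all other endothelial cells at 17 ± 11.6 CPM (SD, n = 10). Arterial cells were the higher in 9 of 9 libraries, by a median of 3.96 times. In endothelial cells the summed pericyte markers were at 456 CPM (45.1 to 1106 over libraries) and those of smooth muscle at 123 CPM (16.9 to 241). The other endothelial cells included a cluster of 76 led by Acta2 and Vtn. The part of mural RNA in the endothelial Gja4 levels was not tested. Astrocytes, at 1.36 ± 1.30 CPM (SD, n = 10), give the level of a class not known for the gene.

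In pericytes Gja4 was at 236, 482, 407, 280.3 and 232 CPM in rank 1 and at 207, 366, 593, 323 and 213 CPM in rank 4. In smooth muscle it was at 388, 993, 825 and 556 CPM in rank 1 replicates 1, 2, 3 and 5. In rank 4 replicates 2 to 5 it was at 623, 895, 479 and 361 CPM. In both classes the high libraries were replicates 2 and 3.

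Gja5 was sparse in these cells. It gave 21 UMIs in all, 10 of them in the 587 arterial endothelial cells and none in the 3698 other endothelial cells. The other 11 were 3 in pericytes, 2 each in erythroid cells, astrocytes and excitatory neurons, and 1 each in a committed precursor and a microglial cell. At 1000 UMIs per cell the share with a Gja5 UMI was 1.12% ± 1.92 in arterial cells (SD, n = 8 libraries) and 1.20% ± 1.43 in erythroid cells (SD, n = 4), which did not differ beyond their spread. The arterial level was 10.7 ± 6.52 CPM (SD, n = 9), with a UMI in 8 of these 9 libraries. Smooth muscle had none, 0 of 561 cells, which allows a share of cells with a UMI of up to 0.535%, while arterial cells had one in 2.08% ± 1.34 (SD, n = 9 libraries). On chromosome 3 (GRCm38, 96904693 to 97077416, plus strand) its annotated span holds 4 other genes on the opposite strand, so its few UMIs are uncertain unless counting used the strand.

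**Figure D3:**
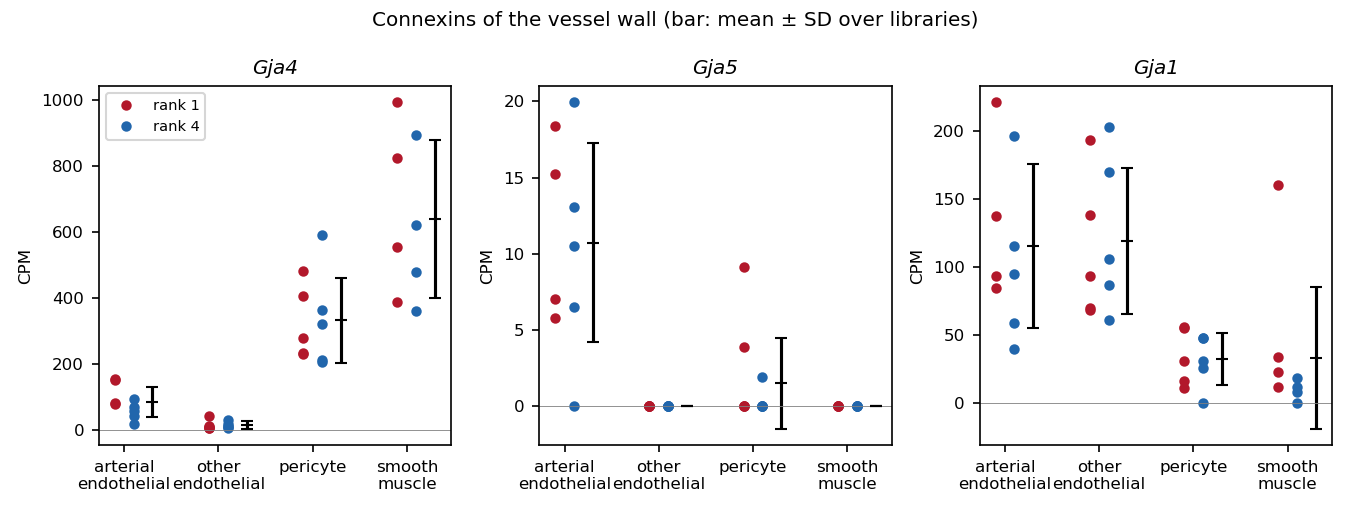
CPM of Gja4, Gja5 and Gja1 in arterial endothelial cells, other endothelial cells, pericytes and smooth muscle cells, 1 point per library (red rank 1, blue rank 4) with the mean ± SD beside them. Gja4 is highest in smooth muscle (640.1 CPM), Gja5 is seen in arterial cells (10.7 CPM) and only sparsely in pericytes, and Gja1 is higher in both endothelial groups than in pericytes.

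Gjd2 was seen in inhibitory neurons at a low level. They held 107 of its 176 UMIs and excitatory neurons 36, although these were the more numerous. Its level was 18.8 ± 9.95 CPM in inhibitory neurons and 0.774 ± 0.680 CPM in excitatory neurons (SD, n = 10 each), and it was higher in inhibitory neurons in 10 of 10 libraries. By subclass it was 19.1 ± 7.61 CPM in Pvalb neurons (SD, n = 5), 15.9 ± 5.31 in Lamp5 neurons (SD, n = 4), 14.0 ± 14.0 in Vip neurons (SD, n = 6) and 6.29 ± 4.90 in Sst neurons (SD, n = 8). Their ranges overlapped, and each rested on 13 to 28 UMIs. Gjd2 lies on chromosome 2 (GRCm38, 114009601 to 114013619, minus strand) and overlaps a transcript on the opposite strand.

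Some of the astrocyte and vessel connexins differed between replicate numbers in the same way in both ranks. Over all genes, libraries of rank 1 and rank 4 with the same number deviated together from the mean of their rank, with a median correlation of 0.673. Replicates 2 and 3 also went with each other, as did 4 and 5 (median 0.679), while other pairs had a median of -0.383. These sets were read from the data and are not groups of the study. In astrocytes, 15.8% of 10670 genes were higher in the 4 libraries of replicates 2 and 3 than in every other library, and Gja1 and Gjb6 were 2 of the 5 members tested there. Gjb2, Gjc3 and Aqp4 did not. Gja1 did so in endothelial cells, where 11.1% of genes did, and Gja4 there did not (10.8 to 69.4 CPM in replicates 2 and 3, 11.3 to 40.6 CPM in the others). Gja4 did so in pericytes, where 17% did, and in smooth muscle, where 22.6% did. Gjc3 in precursors was at 543 CPM or above in replicates 4 and 5 and at 396 CPM or below elsewhere, a pattern shared by 14.9% of genes. Replicates 2 and 3 held 1838 to 4630 deposited barcodes and the other libraries 3454 to 15826, and replicates 4 and 5 were written by another software version. The part of either in these levels was not tested.

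**Figure D4:**
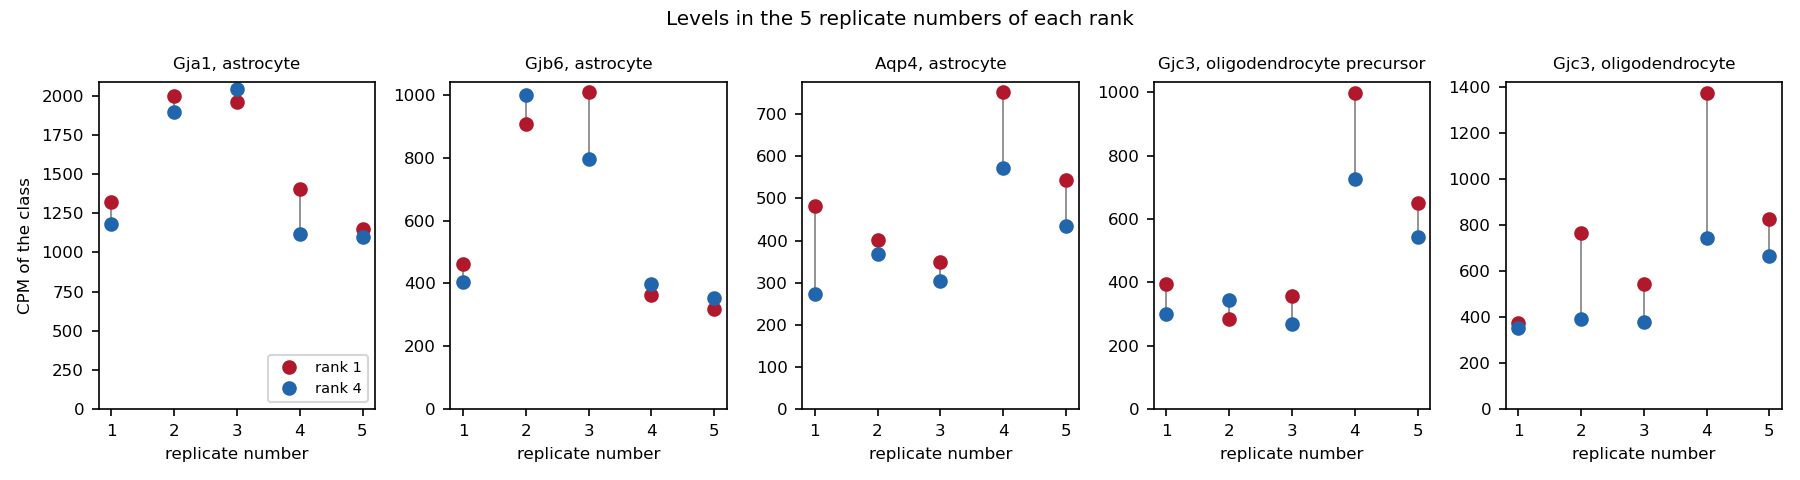
CPM of Gja1, Gjb6 and Aqp4 in astrocytes and of Gjc3 in oligodendrocyte precursors and oligodendrocytes by replicate number, red for rank 1 and blue for rank 4, with a line joining the libraries of 1 number. Gja1 and Gjb6 are high in replicates 2 and 3 of both ranks, and the red point is above the blue one in all 5 numbers for Aqp4 and for Gjc3 in oligodendrocytes.

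The comparison of rank 1 with rank 4 asked whether dominance went with the level of these genes in any class. No difference in a member passed the test, which had the software version as covariate and did not pair libraries. Of 18 tests of 7 members in 9 classes, 0 passed an adjusted p of 0.05 in edgeR's quasi-likelihood test with Benjamini-Hochberg adjustment over all genes of a class, and 0% of all 61545 tests did. An unadjusted p under 0.05 was reached by 1 of the 18 and by 2.36% of all tests. Of the 18 differences 11 were higher in rank 1 and 7 lower, with a median of 0.10 on the log2 scale, against -0.01 for all tests. Gja5 was too sparse to be tested in any class.

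The member with the unadjusted p under 0.05 was Gjc3 in oligodendrocytes. There it was at 372, 765, 545, 1372 and 827 CPM in rank 1, and at 354, 391, 379, 744 and 665 CPM in rank 4. Rank 1 was the higher in 5 of 5 replicate numbers, but the ranks overlapped. The log2 difference was 0.58 ± 0.25 (SE), with an adjusted p of 1.00 (edgeR) and 0.607 to 1.00 over the alternatives. In precursors, at 396, 285, 358, 998 and 652 CPM in rank 1 and 300.2, 346, 269, 728 and 543 CPM in rank 4, it was 0.25 ± 0.20 (SE), with rank 1 higher in 4 of 5 numbers. Without rank 1 replicate 4 it was 0.12, and without rank 4 replicate 5 it was 0.16.

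Aqp4 in astrocytes was also higher in rank 1 in 5 of 5 replicate numbers. Its mean was 506 ± 157 CPM in rank 1 and 391 ± 119 CPM in rank 4 (SD, n = 5 each), a log2 difference of 0.36 ± 0.19 (SE). Its adjusted p was 1.00 (edgeR), and 0.135 to 1.00 over the alternatives. The 95% interval ran from -0.01 to 0.73. Gja1 in astrocytes differed by 0.09 (95% interval -0.36 to 0.54) and Gjb6 by -0.01 (-0.54 to 0.53). The sign of both changed under at least 1 alternative, that of Gja1 only without rank 4 replicate 1 (-0.012). Gjb2 in astrocytes, on 5 to 28 UMIs a library, differed by 0.36 (-0.33 to 1.05), and by 0.083 without rank 1 replicate 3. In vessels Gja4 differed by 0.12 in smooth muscle (-0.48 to 0.72; 0.35 with the replicate number as a block), -0.07 in pericytes (-0.68 to 0.53) and 0.33 in endothelial cells (-0.56 to 1.22). Gja1 differed by -0.14 in endothelial cells (-0.69 to 0.42). Each of these 4 vessel differences changed sign when 1 library was left out. Gjd2 differed by 0.23 in inhibitory neurons (-0.38 to 0.85).

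With the replicate number as a block in place of the software version, 181 of 61834 tests passed (0.293%), and 0 of the 18 tests of members did. An unadjusted p under 0.05 was then reached by 5 of the 18 and by 10.3% of all tests. The 5 were Aqp4 in astrocytes and Gjc3 in precursors and in oligodendrocytes, all with rank 1 above rank 4, and Gja1 and Gjb6 in excitatory neurons, with rank 1 below rank 4. In excitatory neurons the log2 difference was -0.59 for Gja1 (-0.67 with the block) and -0.67 for Gjb6 (-0.70 with the block), the farthest from 0 among the 18, and their levels of 10.3 ± 7.57 and 5.13 ± 4.08 CPM (SD, n = 10) were below those of microglia. Over the alternatives these differences ran from -1.16 to -0.26 for Gja1 and from -1.05 to -0.42 for Gjb6.

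**Figure D5:**
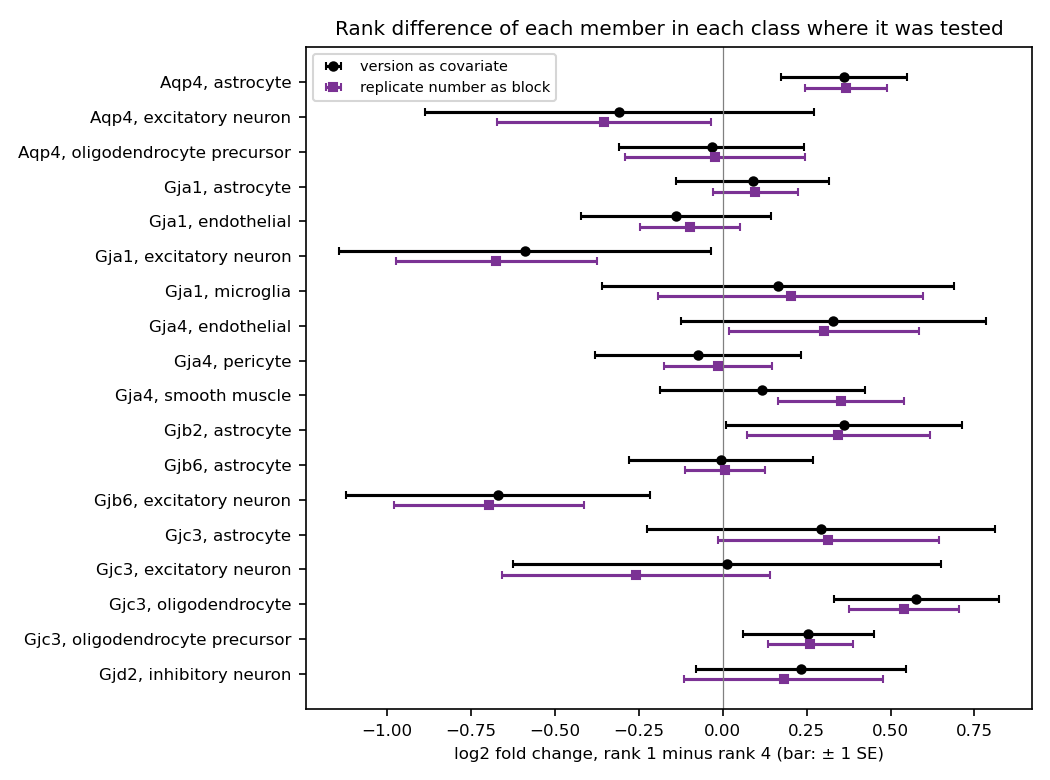
Log2 fold change of rank 1 over rank 4 with its SE for each member and class tested, with the software version as covariate (circles) and the replicate number as block (squares). Gjc3 in oligodendrocytes (0.58) and Aqp4 in astrocytes (0.36) lie farthest above 0 among values with an SE under 0.3, and no test passes after adjustment.

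The shares of cells with a UMI were compared for 4 genes and classes. At 1000 UMIs per cell, Aqp4 was seen in 36.0% ± 7.54 of astrocytes in rank 1 and 30.7% ± 8.30 in rank 4 (SD, n = 5 each; two-sided exact permutation test, p = 0.325, adjusted over the 4 shares tested 0.905). For Gja1 these shares were 74.2% ± 10.4 and 72.3% ± 10.3 (n = 5 each; exact p = 0.730). For Gjb6 they were 41.9% ± 18.1 and 42.4% ± 15.6 (n = 5 each; exact p = 0.905). For Gjc3 in precursors they were 38.6% ± 14.8 and 32.9% ± 10.4 (n = 5 each; exact p = 0.492). The smallest p this design allows is 0.00794. Within replicate numbers the Aqp4 share was higher in rank 1 in 5 of 5 pairs, and an exact permutation test that flips signs over the pairs (replicate block) gave p = 0.0625, the smallest it allows, and 0.25 after adjustment. Without thinning the Aqp4 shares were 53.8% ± 9.22 and 41.9% ± 3.63 (n = 5 each; exact p = 0.0159, adjusted 0.0635). With cells thinned to 2000 UMIs they were 61.2% ± 11.3 and 47.8% ± 6.85 (n = 5 each; exact p = 0.0556, adjusted 0.222).

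Genes that work beside the members were set out in lists. Among 13 other connexins 3 could be tested, in 7 tests, and 0 passed, with a median log2 difference of -0.08. Among the tested ones were Gjb1 and Gjc1 (connexin 45), of which the latter was at 387 ± 111 CPM in pericytes (SD, n = 10) and 209 ± 91.6 CPM in smooth muscle (SD, n = 8). Of 3 pannexins, channel proteins related in shape to connexins, 2 were tested in 5 tests and 0 passed. Panx2, highest in inhibitory neurons, had a log2 difference there of -0.53 ± 0.23 (SE), with an unadjusted p under 0.05 and an adjusted p of 1.00 (edgeR). Of 10 other aquaporins, Aqp9 was seen in astrocytes (30.3 ± 12.4 CPM) and Aqp11 in endothelial cells (114 ± 28.4 CPM; SD, n = 10 each), and 0 of 5 tests passed.

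Of 13 genes for anchoring or partner proteins of connexins and Aqp4, 11 were tested in 64 tests and 0 passed. Among them Dtna (dystrobrevin, 471 ± 124 CPM), Mlc1 (535 ± 196 CPM) and Hepacam (448 ± 152 CPM), which hold Aqp4 or connexins at the membrane, were highest in astrocytes (SD, n = 10 each). Their tests had a median log2 difference of 0.08. Of 48 tests of 7 genes for potassium and glutamate clearance 0 passed, with a median of -0.16. With the replicate block 2 of these 48 tests passed, against 0.293% of all tests, both lower in rank 1 in endothelial cells, where 37 of 8132 genes passed. With 3 sets of libraries (replicate 1, replicates 2 and 3, replicates 4 and 5) as covariate, chosen after seeing the data, 0 of these 8132 did. Among them was Atp1b2, a subunit of the sodium pump. With the replicate block an unadjusted p under 0.05 was reached by 17 of the 48, against 10.3% of all tests.

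The genes whose levels went most with a member over 99 sums of 12 classes and 10 libraries were read as log2(CPM + 10), among 11832 others. The sums share libraries, and the values describe them. For Gja1 they were Ezr (r = 0.915), Fam107a (0.889) and Sox9 (0.881). For Gjb6 they were Slc39a12 (0.926), Hsd11b1 (0.915) and Acsbg1 (0.909), and for Aqp4 Btbd17 (0.916), AI464131 (0.914) and Gm266 (0.901). Between members, Gja1 and Gjb6 reached 0.836, Gjb6 and Aqp4 0.794 and Gja1 and Aqp4 0.774. For Gjb2 the leading genes were Cyp1b1 (0.829), Col1a1 (0.812) and Lum (0.799), the last a pair of matrix genes of fibroblasts. For Gjc3 they were Sox10 (0.957), Gal3st1 (0.952) and Plxnb3 (0.929). For Gja4 they were Gper1 (0.975), Aspn (0.967) and Gm13861 (0.962), and for Gjd2 Moxd1 (0.924), Dlx5 (0.917) and Hcrtr2 (0.916). Gja5 reached 0.663 with Ifi47, 0.619 with Flvcr2 and 0.583 with Cd40, on 21 UMIs.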

How the data were processed

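Per the labels, single cells of the medial prefrontal cortex were sequenced in droplets (10x Genomics). The authors deposited raw UMI counts per gene and barcode. Cell Ranger 4.0.0 and the mm10 build are named in the submitters' processing notes, while the file headers give software version 3.1.0 for replicates 1 to 3 and version 4.0.0 for replicates 4 and 5 of both ranks, with 30406 shared gene identifiers. The annotation release was not given in the sources used here. Positions are from GENCODE M21 (GRCm38), which lists 99.75% of the shared identifiers. Cells with at least 500 genes and at most 15% mitochondrial UMIs were kept. Doublets were called with Scrublet in scanpy 1.11.5 (3915 barcodes removed). In 1 library, rank 1 replicate 1, the caller marked 0.0326% of barcodes, and a score of 0.238, the median threshold of the others, was used. Clustering (2000 variable genes, 30 components, Leiden resolution 1) left out the 8 genes. Clusters were named from 20 marker lists, and a cluster in which 2 classes scored alike, both at 3 or more, was clustered again, a step chosen after seeing the data that separated the fibroblasts. A further 1679 cells stayed unnamed.

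Counts were summed per library and class (at least 20 cells, 3 libraries per rank) and tested with edgeR 4.0.16's quasi-likelihood test (TMM, filter on low counts, version as covariate, adjustment over all genes of a class). The test was also run on simulated astrocyte counts, with larger differences than those of the members and none between replicate numbers. That run does not show what the test can find in these data. P-values measure the spread between libraries. The SE of a log2 difference was computed from the F statistic of the test. Each 95% interval of a log2 difference is that difference ± 1.96 SE, a normal quantile, and is narrower than the test itself would give. Same-numbered libraries of the ranks correlated at 0.441 to 0.872 in their deviations, in all 43 pairs and classes (median 0.673). Libraries with different numbers from the same library set correlated as highly (median 0.679), so these values do not single out the number. The main test did not pair libraries, and the number entered as a block only where the replicate block is named. Calls, SEs and intervals given without the block are those of the unpaired test. Alternatives were DESeq2, RLE factors, no filter, at least 50 cells, stricter cells (1000 genes, 10% mitochondrial), members kept in clustering, resolution 0.5, other covariates and leaving out libraries. Named genes are the 8 members, list genes with an unadjusted p under 0.05 in the class where they are highest, and the 3 genes most correlated with each member. List genes with levels only, and Atp1b2, called with the block, were added after their values were seen. Some genes of the lists are counted but not reported here by name. The members and lists were chosen with earlier results of these data known.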

Additional observations from a re-analysis of the deposited data

Results flagged for a closer look

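Gjd2 in inhibitory neurons had 1 library apart from the other 4 in each rank. In rank 1 it was replicate 2, at 31.7 CPM, against 12.2 to 17.9 CPM in the others. In rank 4 it was also replicate 2, at 41.5 CPM, against 11.8 to 17.5 CPM. These rested on 9 and 5 UMIs in 87 and 42 cells. Of 24 groups of libraries examined this way 2 stood out, and chance gives about 1 in 20.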

How the results depend on the processing

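Without 1 library at a time, 0 to 6 of all gene and class tests passed (6 without rank 1 replicate 1, 4 without rank 1 replicate 3), and 0 of those of members. The count of all passing tests was 181 with the replicate block, 1 with DESeq2, 55 without the filter on low counts, 3 with the stricter cells, 8 within replicates 4 and 5 and 10 with 3 library sets (replicate 1, 2 and 3, 4 and 5) as covariate, an alternative chosen after seeing the data. None of the calls was of a member, and the cause of the differences was not tested. Of the 18 member tests, those not run (too few cells, libraries or counts) are not covered. These were 2 with at least 50 cells (Gjc3 in oligodendrocytes, Gja4 in smooth muscle), 9 with the stricter cells (among them Gjc3 in oligodendrocytes, Gja4 in pericytes, Gjb2 in astrocytes and Gjd2), 3 within replicates 1 to 3, 1 within replicates 4 and 5 (Gja4 in smooth muscle) and 0 to 2 without 1 library (Gja1 in microglia, Gjc3 in astrocytes). With the stricter cells no library had 20 fibroblasts. The log2 difference of Gjb6 in astrocytes, -0.0059, was 0.0062 with the replicate block, 0.0053 with the 3 library sets, 0.030 without a covariate, 0.059 with the stricter cells and 0.10 within replicates 1 to 3. That of Gja4 was -0.028 in smooth muscle within replicates 1 to 3 and -0.57 in endothelial cells within replicates 4 and 5. In endothelial cells the Gja4 difference ran from -0.57 to 1.00 over all alternatives. Leaving out 1 library at a time turned the sign of 6 of these differences, which ranged from -0.012 to 0.21 for Gja1 and -0.18 to 0.14 for Gjb6 in astrocytes, -0.34 to 0.026 for Gja1 in endothelial cells, and, for Gja4, -0.061 to 0.32 in smooth muscle, -0.28 to 0.20 in pericytes (0.195 at most) and -0.077 to 0.63 in endothelial cells. With their sign kept, such ranges were 0.083 to 0.61 for Gjb2 in astrocytes (0.011 within replicates 4 and 5), 0.12 to 0.34 for Gjc3 in precursors and 0.099 to 0.37 for Gjd2 in inhibitory neurons. The difference in the share of astrocytes with Gjb6, -0.588 percentage points, was 1.13 at 2000 UMIs, 2.68 without thinning and 0.870 with the stricter cells. Without 1 library it ranged from -6.17 to 4.89, and that for Gja1 from -1.27 to 4.72. Gjc3 in committed precursors was at 1538 CPM with the stricter cells. The replicate block changed no call of a member.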
